A study of Mus musculus with 2 samples.

Results

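The Schlafen (Slfn) genes are a family of related mouse genes that lie side by side on chromosome 11. The members described here are Slfn1, Slfn2, Slfn3, Slfn4, Slfn5, Slfn8 and Slfn9, chosen by name from the table of gene expression values. They are 7 of its 54532 genes, and each name matched 1 gene. The libraries came from ApoE-/- mice on the C57BL/6J background, which lack apolipoprotein E and develop high blood lipids, with an age of 6 weeks in the sample labels. The paper gives this age where it describes the animals and states none at sampling, which came after the weeks of treatment below. The PDR group (phlegm-dampness retention syndrome) had 4 weeks of high-fat diet. The SKYD group (spleen and kidney yang deficiency syndrome) had 4 weeks of propylthiouracil, a drug that blocks thyroid hormone synthesis, at a daily dose of 10 mg/kg, followed by 2 weeks on the high-fat diet. Aortic cells carrying the macrophage surface proteins encoded by Adgre1 and Itgam (CD11b) were sorted and pooled from 5 mice per group, which gave 1 RNA-seq library per group. The SKYD protocol was the longer one, so that mice starting at the same age were older at sampling in SKYD. Syndrome, drug, diet time and the length of the protocol, with that difference in age, cannot be told apart. No difference given here has a replicate check or a p-value.

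Schlafen proteins share an N-terminal region that can bind nucleic acid, and several members cut or restrict RNA or slow the growth of cells. The mouse proteins fall into a short, an intermediate and a long class, and the long class carries a C-terminal part related to helicases. Many members answer to interferons, and the family was first described in developing lymphocytes and is also expressed in monocytes and macrophages.

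Expression was measured as FPKM, the number of fragments on a gene scaled to the length of the gene and to the library size, so that genes of different length can be compared. Multiplying FPKM by gene length and library size gave back whole reads, and these summed over all genes to 23086889 for PDR and 25427863 for SKYD. The scale of a difference is log2(FPKM + 1), PDR minus SKYD. This scale understates the change of low genes, so the plain FPKM ratio is given beside it. Intervals are exact (Clopper-Pearson) 95% limits on how the reads of a gene split between the libraries. They cover counting error only and not the spread between mice. A mean FPKM of at least 1 was required before a gene was tested against the 2-fold threshold, which 10399 genes and 5 of the 7 members met. Slfn3 and Slfn9 did not meet it and are described by their reads.

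All 7 members had an entry among the RefSeq promoters (GRCm38.p6), from 250 bases before to 50 bases after the start of transcription. The promoters are shown because the motifs found in these windows differed between the size classes of the 7 members. Motifs were searched on both strands. The core of the interferon-stimulated response element (GAAA, any 2 bases and GAAA) was found in 3 of 3 long members and in 0 of 4 short and intermediate members, against 3.44% of all 32851 promoters. Slfn14, a long Slfn gene outside the 7 members, had no match, so that the core was in 3 of the 4 long genes and did not mark the whole class. In the lines below it is in capitals, as read on the strand of the gene, so that a match on the opposite strand appears as its reverse complement.
Slfn5: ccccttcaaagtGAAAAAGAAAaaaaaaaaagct
Slfn8: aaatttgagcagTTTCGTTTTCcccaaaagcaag
Slfn9: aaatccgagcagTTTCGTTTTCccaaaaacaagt
These stretches lie at chr11:82951935-82951968 on the plus strand (Slfn5), chr11:83020837-83020870 on the minus strand (Slfn8) and chr11:82991854-82991887 on the minus strand (Slfn9). The first base of the match was 155 bases before the RefSeq start of Slfn5, 48 before the nearer start of Slfn8 and 45 before that of Slfn9. None of the stretches overlapped an annotated exon, and that of Slfn5 lay inside the longer span that the expression table gives for the gene.

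The core bound by ETS factors (AGGAAGT) had the opposite distribution. It was found in 4 of 4 short and intermediate members and in 0 of 3 long members, against 9.35% of all promoters. Slfn14 had no match to it either. Its letters were chosen after the promoters had been read. Slfn3 held it in both orientations, 59 and 42 bases before its start, and the nearer match is shown.
Slfn1: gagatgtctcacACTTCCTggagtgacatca
Slfn2: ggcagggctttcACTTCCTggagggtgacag
Slfn4: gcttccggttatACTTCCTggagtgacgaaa
Slfn3: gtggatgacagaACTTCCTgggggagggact
These lie on the plus strand at chr11:83116734-83116764 (Slfn1), chr11:83065045-83065075 (Slfn2), chr11:83175101-83175131 (Slfn4) and chr11:83191276-83191306 (Slfn3), outside annotated exons. The match began 74 bases before the start in Slfn1, 55 in Slfn2 and 73 in Slfn4. Slfn1 and Slfn4 shared a run of 15 bases around it. The gamma-activated site (TTCNNNGAA) was found in 0 of the 7 members and in 8.3% of all promoters. A match is a description of the letters and not of a bound site, and a missing match says only that the letters are not in this window.

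Coding sequence was closest in a pair of long and a pair of intermediate members. Slfn8 and Slfn9 had 92.7% identical bases over 2730 aligned coding bases, and their promoters were 82% identical over 300 bases. Slfn3 and Slfn4 had 91.8% identical bases over 1779 aligned coding bases. The short members did not stand out as such a pair. Slfn1 and Slfn2 had 68.7% over 1008 aligned bases, and each of them had from 67.7% to 71.4% with Slfn3 and Slfn4. Reads from stretches that 2 genes share cannot be placed on 1 gene with certainty. The share of 100-base windows found without a mismatch in transcripts of another gene was therefore counted. It was 0% for Slfn1, 0.128% for Slfn2, 0.271% for Slfn4, 2.92% for Slfn3, 3.38% for Slfn8, 3.71% for Slfn9 and 6.4% for Slfn5. By exact match the close pairs were therefore distinct over most windows of the length of 1 read. Windows that differ by a few bases were not counted as shared.

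The short members made up nearly all Schlafen RNA in both libraries. Slfn2 (ENSMUSG00000072620, chr11:83065112-83070678, plus strand), which keeps T cells and monocytes in a resting state, encodes 378 amino acids and has 2 exons. Its FPKM was 627 in PDR and 446 in SKYD, from 24496 and 18532 reads. Among all genes it ranked 119 by FPKM in PDR and 182 in SKYD. Slfn2 was 1.41-fold higher in PDR by FPKM (95% CI 1.38 to 1.43), a log2 difference of 0.49 (95% CI 0.46 to 0.52). This was a modest difference, and 18.3% of the genes tested had a larger one in that direction.

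Slfn1 (ENSMUSG00000078763, chr11:83116849-83122670, plus strand), which slows the growth of T lineage cells when overexpressed, encodes 337 amino acids and also has 2 exons. Its FPKM was 96.1 in PDR and 55.9 in SKYD, from 4207 and 2606 reads. The ratio was 1.72 (95% CI 1.64 to 1.80) and the log2 difference 0.77 (95% CI 0.70 to 0.84), so that the interval of Slfn1 lay above that of Slfn2. The FPKM of Slfn2 was 6.52 times that of Slfn1 in PDR (95% CI 6.31 to 6.74) and 7.97 times in SKYD (95% CI 7.65 to 8.30). The balance within the short class was therefore not the same in the 2 libraries. Together these genes held 98.4% of the summed FPKM of the members in PDR and 98.2% in SKYD.

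**Figure D1:**
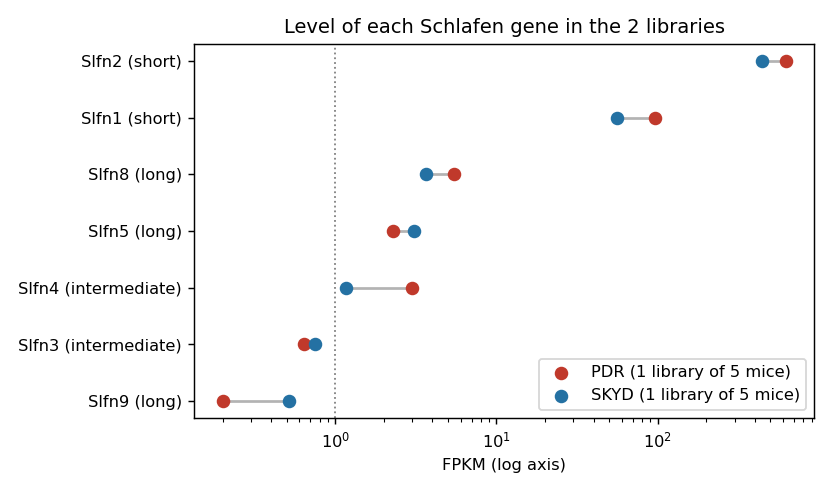
FPKM of each Schlafen member on a log axis, with 1 point for the PDR library and 1 for the SKYD library, each a pool of 5 mice, and the size class in brackets. The dotted line marks an FPKM of 1. Slfn2 and Slfn1 stand far above the other members in both libraries, and Slfn4 and Slfn5 exchange places between them.

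The intermediate members did not move together. Slfn4 (ENSMUSG00000000204, chr11:83175186-83190216, plus strand), a gene of the myeloid lineage that changes as macrophages mature and are activated, encodes 602 amino acids. Its FPKM was 3.01 in PDR and 1.16 in SKYD, from 280 and 115 reads. The FPKM ratio was 2.59 (95% CI 2.08 to 3.25), above those of the other members higher in PDR. On the log2(FPKM + 1) scale the difference was 0.89 (95% CI 0.70 to 1.08), just under the 2-fold threshold, and with a pseudocount of 0.1 it was 1.30. Whether Slfn4 counts as more than 2-fold higher thus depends on the scale. Slfn3 (ENSMUSG00000018986, chr11:83191330-83215154, plus strand), known from the differentiation of the gut epithelium, encodes 640 amino acids and had an FPKM of 0.637 in PDR and 0.751 in SKYD. From 51 and 64 reads, its ratio of 0.848 (95% CI 0.575 to 1.24) allowed a difference in either direction. Slfn3 was the only member whose counting interval included no difference, although it is the neighbour and close copy of Slfn4.

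The long members went both ways. Slfn8 (ENSMUSG00000035208, chr11:83002158-83020810, minus strand) encodes 910 amino acids. Its FPKM was 5.44 in PDR and 3.65 in SKYD, from 523 and 373 reads, a ratio of 1.49 (95% CI 1.30 to 1.71) and a log2 difference of 0.47 (95% CI 0.31 to 0.63). Slfn8 was the only long member higher in PDR. Slfn5 (ENSMUSG00000054404, chr11:82951349-82964840, plus strand), a nuclear member that interferons induce in many cells, encodes 884 amino acids. Its FPKM was 2.28 in PDR and 3.07 in SKYD, from 339 and 485 reads, which made it 1.34-fold higher in SKYD (95% CI 1.17 to 1.55), with a log2 difference of -0.31 (95% CI -0.46 to -0.16). It was the only tested member lower in PDR, and 27.8% of the genes tested had a lower difference. Slfn9 (ENSMUSG00000069793, chr11:82978390-82991830, minus strand) encodes 910 amino acids like Slfn8. Its FPKM was 0.200 in PDR and 0.516 in SKYD, from 28 and 77 reads. By FPKM Slfn9 was 2.58-fold higher in SKYD (95% CI 1.66 to 4.14), and on the log2(FPKM + 1) scale the difference was -0.34 (95% CI -0.47 to -0.19). Slfn8 and Slfn9, the closest pair by coding sequence at the gap opening cost of 10, thus differed in opposite directions. With a cost of 3, Slfn3 and Slfn4 had the same identity over aligned bases, 92.7%.

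**Figure D2:**
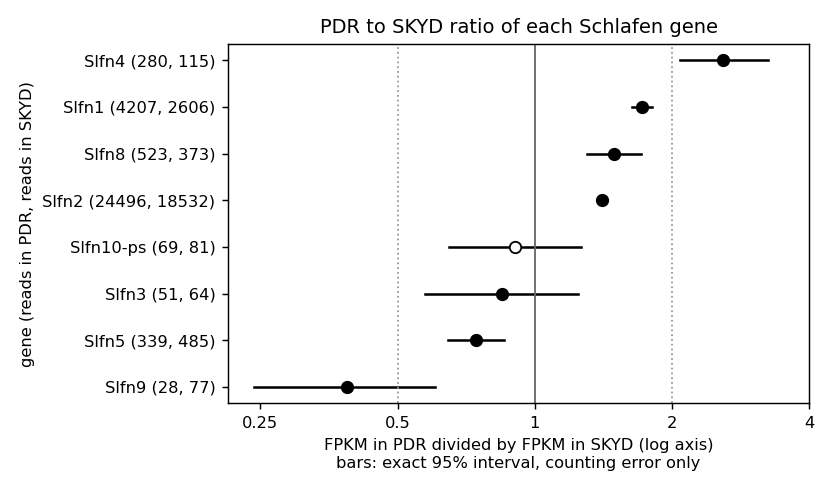
FPKM in PDR divided by FPKM in SKYD for the 7 members (filled) and the pseudogene Slfn10-ps (open), on a log axis, with reads in PDR and SKYD in brackets. Bars are exact 95% intervals that cover counting error only, the solid line marks equal FPKM and the dotted lines mark 2-fold. The bars of Slfn3 and Slfn10-ps cross the solid line, and those of the other members do not.

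Counted over the family, 4 members were higher in PDR and 3 were lower, Slfn3 among them within counting error. These directions held under every alternative scaling run, and a change of pseudocount cannot alter a direction. On the log2(FPKM + 1) scale, 0 of the 5 members tested passed 2-fold toward PDR, against 7.38% of all genes tested, and 0 were more than 2-fold higher in SKYD, against 6.91%. By the plain FPKM ratio over genes whose mean FPKM reached 0.1, a rule chosen after the values were seen, Slfn4 was more than 2-fold higher in PDR, against 14.1% of the 16975 genes. Slfn9 was more than 2-fold higher in SKYD by the same rule, against 15.8%. With so few members, 1 in each direction is near the background. The median difference of the 5 members tested was 0.49, and the median of all genes tested was -0.0035, with 49.6% of them higher in PDR.

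As a sum, the FPKM of the 7 members was 734 in PDR and 511 in SKYD, a ratio of 1.44 (95% CI 1.41 to 1.46). The members took 29924 reads in PDR, 0.130% of the library (exact 95% CI 0.128% to 0.131%), and 22252 in SKYD, 0.0875% (exact 95% CI 0.0864% to 0.0887%). The sum follows Slfn2, which held 85.3% of it in PDR and 87.3% in SKYD. By class, the summed FPKM was 723 in PDR and 502 in SKYD for the short members, 3.64 and 1.91 for the intermediate members and 7.92 and 7.23 for the long members. The ratio of PDR to SKYD was therefore 1.91 for the intermediate class, 1.44 for the short class and 1.10 for the long class, in which Slfn8 and Slfn5 offset each other. In bulk samples, fewer cells of a type and less RNA per cell cannot be told apart.

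The order of levels by FPKM was Slfn2, Slfn1, Slfn8, Slfn4, Slfn5, Slfn3 and Slfn9 in PDR. In SKYD Slfn5 stood before Slfn4, and the order was otherwise the same. The FPKM of Slfn4 was 1.32 times that of Slfn5 in PDR (95% CI 1.12 to 1.55) and 0.378 times in SKYD (95% CI 0.306 to 0.465), so that the exchange of places was larger than counting error in both libraries. Slfn8 was 2.39 times Slfn5 in PDR but 1.19 times in SKYD (95% CI 1.04 to 1.36). Slfn4 was 4.72 times Slfn3 in PDR (95% CI 3.5 to 6.5) and 1.55 times in SKYD (95% CI 1.13 to 2.13). Slfn3 was 3.19 times Slfn9 in PDR (95% CI 1.97 to 5.25) and 1.45 times in SKYD (95% CI 1.03 to 2.05). No neighbours in either order had an interval that included equal levels, though those of Slfn8 and Slfn5 and of Slfn3 and Slfn9 in SKYD came close to it. From the highest to the lowest member the FPKM spanned 3136-fold in PDR and 863-fold in SKYD.

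Rows with a name that starts with Slfn but outside the 7 members had few reads. Slfn10-ps, a transcribed pseudogene between Slfn8 and Slfn2, had an FPKM of 0.811 in PDR and 0.895 in SKYD, from 69 and 81 reads, a ratio of 0.906 (95% CI 0.648 to 1.27). It shares 7.84% of its windows with Slfn8 and Slfn9. Slfn14, a long member that cleaves RNA and is known from platelets, had 0 reads in PDR, which allows up to 3, and 10 reads in SKYD. Set against a floor of 3, these 10 reads were at least 3.13-fold higher, and the exact 95% lower limit, which also covers the counting error of the 10, was 2.11-fold. Slfn5os, on the strand opposite to Slfn5, had 0 and 2 reads. Slfnl1, on chromosome 4, had 0 reads in both libraries.

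The 10 rows on chromosome 11 that carry the Slfn name lie within 344 kb, and the 7 members within 264 kb. Slfn5, Slfn9 and Slfn8 sit at one end and Slfn1, Slfn4 and Slfn3 toward the other, with Slfn2 between them. The direction of the difference followed this order in part. Slfn8, Slfn2, Slfn1 and Slfn4 followed one another with higher values in PDR, and Slfn5 and Slfn9 on one side and Slfn3 on the other had lower values. Between Slfn8 and Slfn2, Slfn10-ps had no difference larger than counting error. Among the 16 genes of the cluster with other names, 6 had reads and 4 had a mean FPKM of at least 1. AI662270, a non-coding gene next to Slfn3, was the most abundant of these, with an FPKM of 33.5 in PDR and 45.2 in SKYD, a log2 difference of -0.42 (95% CI -0.50 to -0.35). It was named after its values were seen, and it differed in the direction opposite to that of Slfn1, Slfn2, Slfn4 and Slfn8.

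Gm20234, on the strand opposite to Slfn2, overlaps it by 4927 bases and was also named after its values were seen. It had 16 reads in PDR and 43 in SKYD, an FPKM of 0.95 and 2.40, and was 2.53-fold higher in SKYD (95% CI 1.39 to 4.80). Whether reads were counted by strand is not given in the sources used here. Reads of Slfn2 and Gm20234 therefore cannot be told apart with certainty, and those of Gm20234 are few beside the 24496 and 18532 of Slfn2. Of the genes that flank the cluster, Nle1 was lower in PDR by log2 difference, at -0.27 (95% CI -0.50 to -0.04). Unc45b had 7 and 10 reads, AA465934 had 10 and 6, and Unc45bos and Snord7 had 0 in both libraries. The higher values of Slfn1, Slfn2, Slfn4 and Slfn8 in PDR were thus not seen in Nle1.

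**Figure D3:**
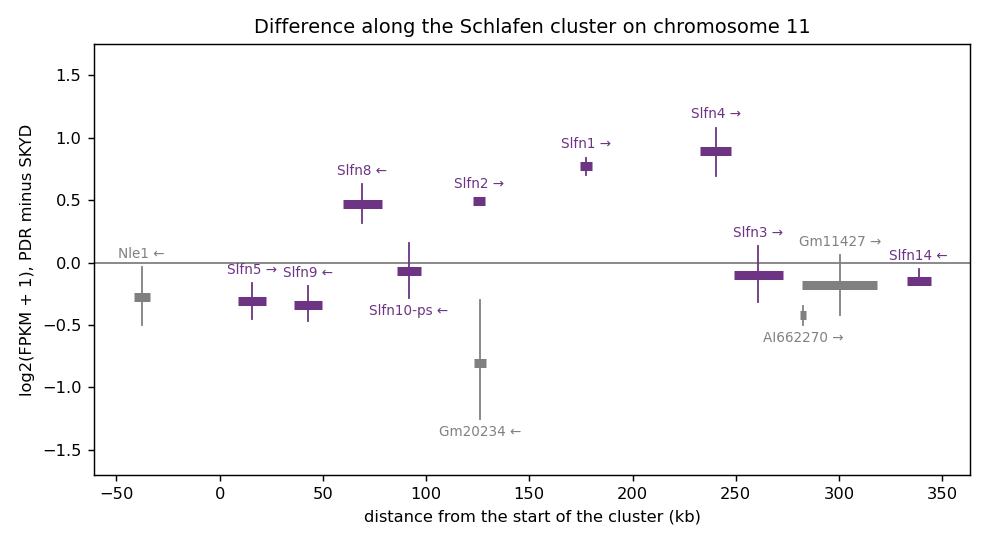
Difference in log2(FPKM + 1), PDR minus SKYD, against the distance in kb from the start of the Schlafen cluster, with Slfn genes in purple and other genes in gray. Thick bars span each gene, thin lines are exact 95% intervals for counting error and arrows give the strand. Slfn genes with at least 10 reads over both libraries and other genes inside the cluster or before it with at least 50 are drawn. Slfn8, Slfn2, Slfn1 and Slfn4 lie above 0 and the genes around them at or below it.

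For each member, the 3 closest of 8790 protein-coding genes outside the family were found by their distance in log2(FPKM + 1) over the 2 libraries, which uses the level and the difference together. Slfn2 lay nearest to the ribosomal protein gene Rps18 (distance 0.071), followed by Ms4a4c (0.084). Slfn1 lay nearest to Rfc4 (0.015), Ltb (0.037) and Tbc1d10c (0.10). Ltb encodes lymphotoxin beta of lymphocytes, and Rfc4 a clamp loader of DNA replication. Slfn8 lay nearest to Riok1, Supt20 and Ncaph, with Riok1 at a distance of 0.014. The neighbours of Slfn5 were Appl1, Acbd3 and 0610010F05Rik, with Appl1 at 0.0075. Near Slfn4 were Aldoc, Zfp189 and Myo1e, with Aldoc at 0.034. For the low members the matches were loose. Slfn3 was 0.34 from Ppm1a, followed by B3gnt2 and Tmppe, and Slfn9 was 0.78 from Wasl, followed by Rab35 and Mier2, since genes with a mean FPKM under 1 were not searched. Over 2 libraries such closeness is a description of level and difference only.

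Since the family answers to interferons, the members were set beside lists of the interferon pathway. Of 20 interferon genes, 0 reached a mean FPKM of 1 and 18 had 0 reads in both libraries. Ifng, the type II interferon, had 39 reads in PDR and 6 in SKYD, and Ifnb1, a type I interferon, had 0 and 12. Among 6 receptor genes, 5 were tested and 0 were more than 2-fold different in either direction, with a median difference of 0.06. Ifngr1, the most abundant, had an FPKM of 114 in PDR and 168 in SKYD and a difference of -0.55 (95% CI -0.60 to -0.51), while Ifngr2 had 0.60, Ifnar1 0.52 and Ifnar2 -0.31. Receptors of the same interferon thus differed in opposite directions, as the Schlafen members did. All 13 signal transducers were tested, with 4 past 2-fold toward PDR and 0 toward SKYD, and a median of 0.45. By gene, 9 were higher in PDR and 4 were lower. Those lower were Irf2 (-0.19, 95% CI -0.30 to -0.07), Jak1 (-0.10, 95% CI -0.16 to -0.03), Irf3 and Stat3. The intervals of Irf3 and Stat3 included no difference. Irf1 had a difference of 1.79 (95% CI 1.71 to 1.87), Irf7 of 1.04 (95% CI 0.98 to 1.10), Stat2 of 0.79 (95% CI 0.64 to 0.94) and Irf9 of 0.45 (95% CI 0.36 to 0.54). Irf5 had the highest mean FPKM of the transducers, with a difference of 0.45.

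Targets of interferon were compared last. In the type I response, 34 of 38 genes were tested, with 11 past 2-fold toward PDR and 0 toward SKYD, and a median difference of 0.68 beside 0.49 for the 5 Schlafen members tested. That order rests on the filter, since both medians were 0.63 when a mean FPKM of 5 was required, with 2 members left. The most abundant of that list, Ifitm3, was lower in PDR, with a difference of -0.55 (95% CI -0.56 to -0.53), followed in abundance by Ifi27l2a with 0.40 and Phf11b with 1.57. In the type II response, 22 of 25 genes were tested, with 18 past 2-fold toward PDR and 0 toward SKYD, and the median was 2.04. Its most abundant genes, the immunoproteasome genes Psmb8, Psmb10 and Psmb9, had differences of 0.93, 0.68 and 1.39. The highest of the members tested, Slfn4 at 0.89, lay well under the median of the type II list. Among the members with the interferon-stimulated response core in their promoter, Slfn8 was higher in PDR and Slfn5 and Slfn9 were lower, so that this core did not sort the members by direction. The ETS core, whose letters were chosen after the promoters had been read, marks the remaining 4 members and so gives the same split. Of these 4, 3 were higher in PDR and Slfn3 had an interval that included no difference. A relation of either core to direction was not tested.

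**Figure D4:**
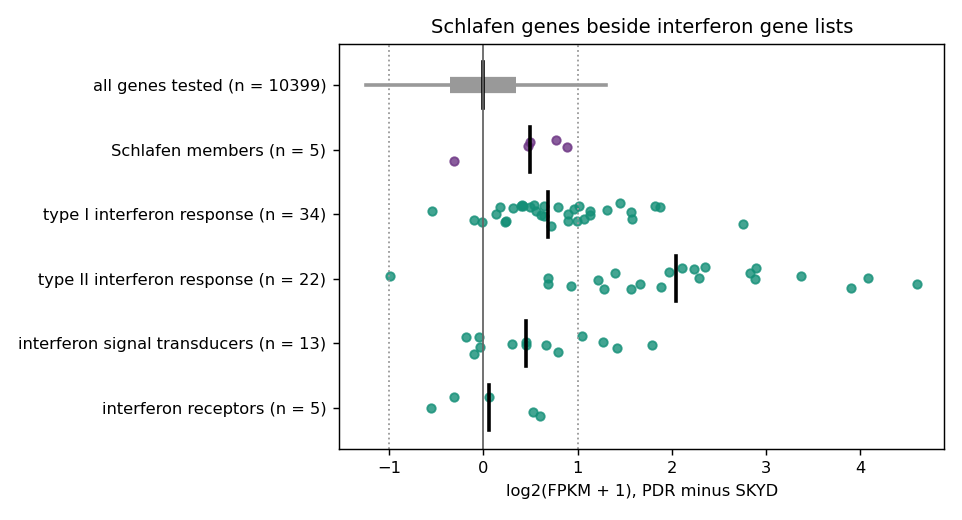
Difference in log2(FPKM + 1), PDR minus SKYD, of the 5 Schlafen members tested and of the tested genes of each interferon list, with 1 point per gene and a black line at each median. For all 10399 genes tested, the thick bar spans the middle 50% and the thin bar the middle 90%. Dotted lines mark 2-fold. The Schlafen members lie among the genes of the type I list and below most of the type II list.

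Markers of cell types that express Schlafen genes also differed between the libraries. Over all genes tested, 7.38% passed 2-fold toward PDR and 6.91% toward SKYD. A marker with an FPKM under 1 in 1 library met the filter through the other alone, and could be counted only toward that library. The sort markers were present in both, with 6639 reads on Adgre1 in PDR and 7551 in SKYD, and 1043 and 1803 on Itgam (CD11b). Of 14 macrophage markers tested, 0 passed 2-fold toward PDR and 3 toward SKYD, and their summed FPKM was 22915 in PDR and 42960 in SKYD, led by Lyz2 with 22217 and 41336. The sum is thus nearly all Lyz2. By gene, 10 of the 14 were lower in PDR and 4 were higher, so that the list did not move as a whole. The 4 were Marco (0.84), Fcgr1 (0.54), Csf1r (0.35) and Timd4, whose value was within counting error (0.005, 95% CI -0.10 to 0.11). Of 8 monocyte markers, all had a higher value in PDR, though that of Spn was within counting error (0.02, 95% CI -0.12 to 0.17) and 1, Ly6c2, passed 2-fold, and their summed FPKM was 3476 in PDR and 2043 in SKYD, led by Plac8. For neutrophils, 4 of 12 markers passed 2-fold toward PDR and 0 toward SKYD, with a summed FPKM of 4895 and 3738, led by S100a9. Mmp8 (-0.56, 95% CI -0.61 to -0.50) and Retnlg (-0.32, 95% CI -0.40 to -0.25) were lower in PDR and the other 10 higher. The sums of the monocyte and neutrophil lists had the direction of Slfn4 and of the Schlafen sum, and Mmp8 and Retnlg did not. That direction was not particular to these lists. The B cell, NK and cytotoxic, plasma cell, hepatocyte and endothelial sums, given below, had it too. The macrophage, T cell, immature thymocyte, dendritic cell, platelet, erythroid, fibroblast and smooth muscle sums had the opposite one. Lymphocyte lists moved in both directions. All 14 T cell markers were more than 2-fold higher in SKYD, with a summed FPKM of 489 in PDR and 3005 in SKYD, led by Trbc2. Of 10 markers of immature thymocytes, 9 were more than 2-fold higher in SKYD, with a sum of 70.8 and 928, led by Cd8b1, and Cd1d1 was higher in PDR (0.84, 95% CI 0.71 to 0.97). Among the 9, Rag1, Rag2 and Ptcra had 0 reads in PDR. Dntt, Ccr9 and Arpp21 had an FPKM there of 0.78, 0.54 and 0.0049, so these genes met the filter through SKYD alone. Slfn1 and Slfn2, which T lineage cells express, were higher in PDR, opposite to these lists apart from Cd1d1. B cell markers were more than 2-fold higher in PDR in 8 of 8 genes tested, of 11 on the list, with a sum of 1816 and 409, led by Cd79b. NK and cytotoxic markers were more than 2-fold higher in PDR in 8 of 10 tested, of 11 on the list, with a sum of 649 and 247, led by Gzma, and Klrd1 was lower in PDR (-0.71). None of these 7 lists had a marker at 0 in both libraries. The part of any of these cell types in the Schlafen differences was not tested.

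**Figure D5:**
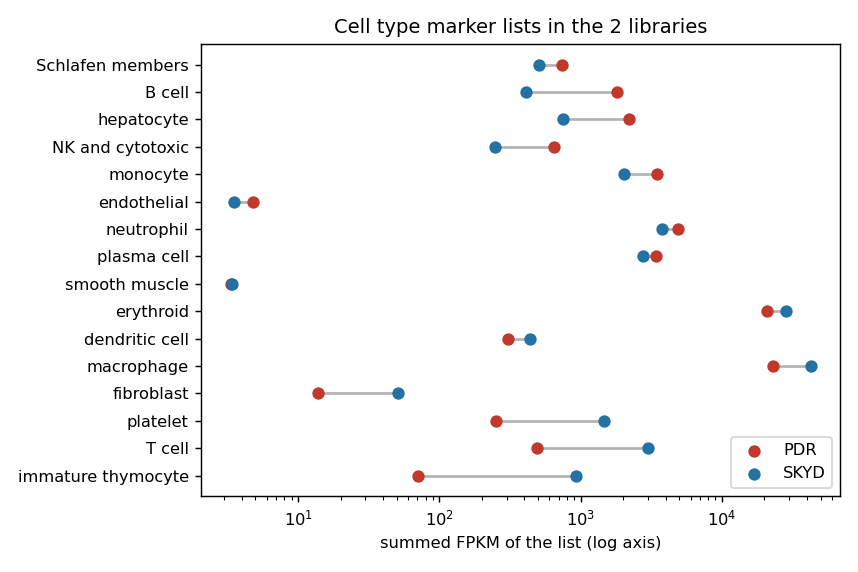
Summed FPKM of each cell type marker list and of the 7 Schlafen members in the PDR and SKYD libraries, on a log axis, with the lists ordered by the ratio of the sums. The Schlafen sum is 734 in PDR and 511 in SKYD, and B cell and T cell lists differ far more, in opposite directions.

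Reads were also present on Apoe, which the mice lack by genotype, with 17336 in PDR and 3618 in SKYD, a log2 difference of 2.33 (95% CI 2.28 to 2.38). The exons behind them are not shown by a value per gene, so these values neither check nor contradict the genotype in the labels.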

How the data were processed

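Sorted aortic macrophages were sequenced as 1 pooled library of 5 mice per group. The authors deposited FPKM for 54532 genes. The submitters' processing notes name Bowtie2 2.0.6, TopHat2 2.0.9, HTSeq 0.6.1 and DESeq 3.18.1. They also name the build mm9, but 98.3% of the 54409 genes shared with GENCODE M21 have its start and end, so positions are given on GRCm38.

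Library sizes were found from the smallest steps of each FPKM column, and FPKM was multiplied by gene length and size to give reads. They were whole within 0.01 for 100% of genes above 0 (17738 in PDR, 20499 in SKYD). The sizes were 1.017 times the reads on genes in PDR and 0.9829 times in SKYD. They were thus not plain sums of these reads, and FPKM may already hold a scaling between the libraries. How the sizes were set is not stated, though the paper's supplement names edgeR for samples without replicates. Scaling by the trimmed mean of log ratios therefore changed little, with 0.499 for Slfn2 in place of 0.491. The 10 most abundant genes took 14.49% and 15.4% of reads. The floor for a count of 0 was 3 reads.

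The members and lists were chosen with earlier results of these data known. Genes were named by rule: the members, other rows named Slfn, 3 flanking genes on each side of the cluster, the 3 closest genes of each member, the interferon genes and sort markers given singly, and leading genes of each list. A few genes that this rule names are not reported here. The motifs, pairs of members and size classes were set after the data were at hand. Coding sequences of GENCODE M21 were aligned globally with a gap opening cost of 10, set after a cost of 3 had given Slfn3 and Slfn4 92.7% and distant pairs scattered gaps. Promoters came from RefSeq.

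The differences have no test, since a group has 1 library. Alternatives were other pseudocounts, filters, scalings and thresholds, and protein-coding genes only. The steps were tested on simulated data. The work used scipy 1.17.1, pandas 2.3.3, numpy 2.4.6, biopython 1.88 and matplotlib 3.10.9 in Python 3.11.15.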

Additional observations from a re-analysis of the deposited data

How the results depend on the processing

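No paired analysis was possible because each group has 1 library. Over the alternatives run, 50 of 56 values of single members stayed within their counting interval, 6 moved beyond it and 0 changed sign. These counts include values that could not move. A change of filter, or keeping protein-coding genes only, leaves the difference of a member as it was. A change of pseudocount cannot change its sign. Slfn4 ranged from 0.89 to 1.37 and Slfn9 from -1.33 to -0.33, both moved most by the pseudocount, while Slfn2 ranged from 0.49 to 0.54. The number of members more than 2-fold higher in PDR was 1, Slfn4, in place of 0 with pseudocounts of 0.1 and 0.01, with TPM and with the plain FPKM ratio, a rule added after the data were seen. That rule, which also lowered the filter to a mean FPKM of 0.1, gave 1 member, Slfn9, more than 2-fold higher in SKYD. With pseudocounts of 0.1 and 0.01 Slfn9 had -1.04 and -1.33 and was not counted, because its mean FPKM is under 1. The median of the members was 0.63 with a mean FPKM of at least 5, where 2 members were left. The ratio of summed FPKM was 1.49 when scaled by recovered reads in place of 1.44. Of the 10399 genes tested, 767 in PDR and 719 in SKYD passed 2-fold, and 194 and 216 passed 4-fold. With a pseudocount of 0.1, 1057 and 1010 passed 2-fold, with one of 0.01, 1096 and 1048, and with TPM, 904 and 793. The settings that added Slfn4 thus also raised the count over all genes. Under the plain ratio with the lower filter, 2389 and 2680 of 16975 genes passed 2-fold. Of 93 list medians, 73 stayed between the medians of the limits of their genes, 20 moved, and 3 changed sign. These were the endothelial (-0.02) and smooth muscle (-0.18) lists without a filter and the platelet list (-1.26) at a mean FPKM of at least 5. The cause of these changes was not tested. Slfn3 (51 and 64 reads) and Slfn9 (28 and 77 reads) are the members that depth limits most.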

Other observations

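Other cell type lists stood beside the Schlafen genes in the same libraries, and their part in the Schlafen differences was not tested. Of 10 hepatocyte markers, 9 were more than 2-fold higher in PDR, with a summed FPKM of 2212 in PDR and 748 in SKYD, led by Apoa2. Plasma cell markers were more than 2-fold higher in PDR in 3 of 7 genes tested, with sums of 3401 and 2747, led by Jchain. Dendritic cell markers were more than 2-fold higher in SKYD in 2 of 8 tested, with sums of 308 and 440. They were led by Bst2, which is also on the type I interferon list and had a difference of -0.10. Ccr7 was the 1 tested marker higher in PDR, with 0.89, and the other 7 were lower. Platelet markers, of which 4 of 8 were tested, had sums of 250.1 and 1471, nearly all from Pf4, with 218 and 1446, the 1 gene more than 2-fold higher in SKYD. The other 3 tested were higher in PDR, with 0.20 for Ppbp, 0.34 for Gp9, whose interval included no difference, and 0.92 for Treml1, and the list median was 0.27. Of 6 erythroid markers tested, 0 passed 2-fold, with sums of 20989 and 28335, led by Hba-a1. Fibroblast markers were more than 2-fold higher in SKYD in 3 of 4 tested, with sums of 13.9 and 50.9, led by Dcn. Endothelial markers summed to 4.77 and 3.54, with 1 of 8 tested, and smooth muscle markers to 3.33 and 3.42, with 2 of 7 tested and Myh11, Cnn1 and Tagln at 0 in both libraries. Vessel wall markers were thus low in both pools of aortic cells.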
